A study of Nicotiana tabacum with 36 samples.

Results

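In leaf RNA of tobacco seedlings, 55 of 35519 annotated genes were always more abundant in the cultivar TT (Taiyan8) than in YT (Yanyan97). This held before cold and at every sampled time of cold, and the genes lay outside the left-out chromosome segments. They were chosen by their measured level in TPM (transcript abundance scaled for gene length and library size): the mean TPM + 1 of TT had to be at least 2 times that of YT at each of 6 time points. Of 73 genes that met this ratio, 18 were left out, namely 10 at the end of chromosome 8, 7 in a segment of chromosome 12, and 1 gene for a phosphoserine phosphatase left out by name. No gene of the first 5 Mb of chromosome 11, the remaining left-out segment, met the ratio. With the ratio turned round and the same segments left out, 129 genes were always higher in YT. The groups were TT and YT seedlings at the five-leaf stage, kept at 4 °C for 0.5, 1, 2, 4 or 8 h or sampled at 0 h without cold, with 3 biological replicates in each of the 12 groups and 36 libraries in all. TT is the cold-susceptible and YT the cold-resistant cultivar, and no transgene or chemical treatment was used. The 0 h group is the only control, so time in cold and time since the 0 h harvest cannot be told apart.

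Plants sense chilling within minutes, and a transcription cascade led by CBF factors then changes many genes in the leaf within hours. Cultivars can also differ before any stress, for example where a gene copy is missing, altered or differently regulated in a lineage. Whether this holds for any of the 55 genes was not tested. Cultivated tobacco is an allotetraploid that carries closely similar gene copies from its ancestral parents, so some reads cannot be placed with certainty on a gene or its counterpart. Alignments with a mapping quality under 20 were left out by the authors. Reads may thus be lost or misplaced, and the levels of the 55 genes carry that uncertainty. In bulk leaf tissue, fewer cells of a type and less RNA per cell cannot be told apart.

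The deposited counts summed to between 15484160 and 26691552 per library, the lowest being YT 4 h replicate 3 and the next lowest library 22239372. Leaving out that lowest library kept all 55 genes in the set. Position, gene models and counts were given on the Nitab-v4.5 tobacco assembly.

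The 55 genes spanned a wide range of abundance. Their mean level had a median of 13.3 TPM in TT and 1.13 TPM in YT, and 5 of them were above 100 TPM in TT. Because the cultivar contrast chose the genes, the following differences between TT and YT are descriptions and were not tested. The smallest of the 6 ratios of a gene had a median of 3.02 over the set and lay between 2.06 and 15.1; it reached 4 in 17 genes and 8 in 4 genes, and was under 3 in 27 genes. In 50 of the 55 genes the lowest TT library exceeded the highest YT library at all 6 time points, where 0.965% of 20409 genes with a mean of at least 1 TPM did so; this count also follows from the choice of the genes. At a single time point, 6.73% of those genes had no overlap with TT higher before cold, 12% after 0.5 h, 7.71% after 1 h, 6.97% after 2 h, 12% after 4 h and 9.11% after 8 h; of the 5 genes with an overlap in the set, 4 overlapped at 1 time point and 1 at 2. In 37 genes the lowest of all 18 TT libraries stood above the highest of all 18 YT libraries, where 0.294% of the 20409 genes did so; this too follows from the choice. Replicates were closer in TT, with a median coefficient of variation of 20.7% within a group against 42.1% in YT, whose levels were lower.

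**Figure D1:**
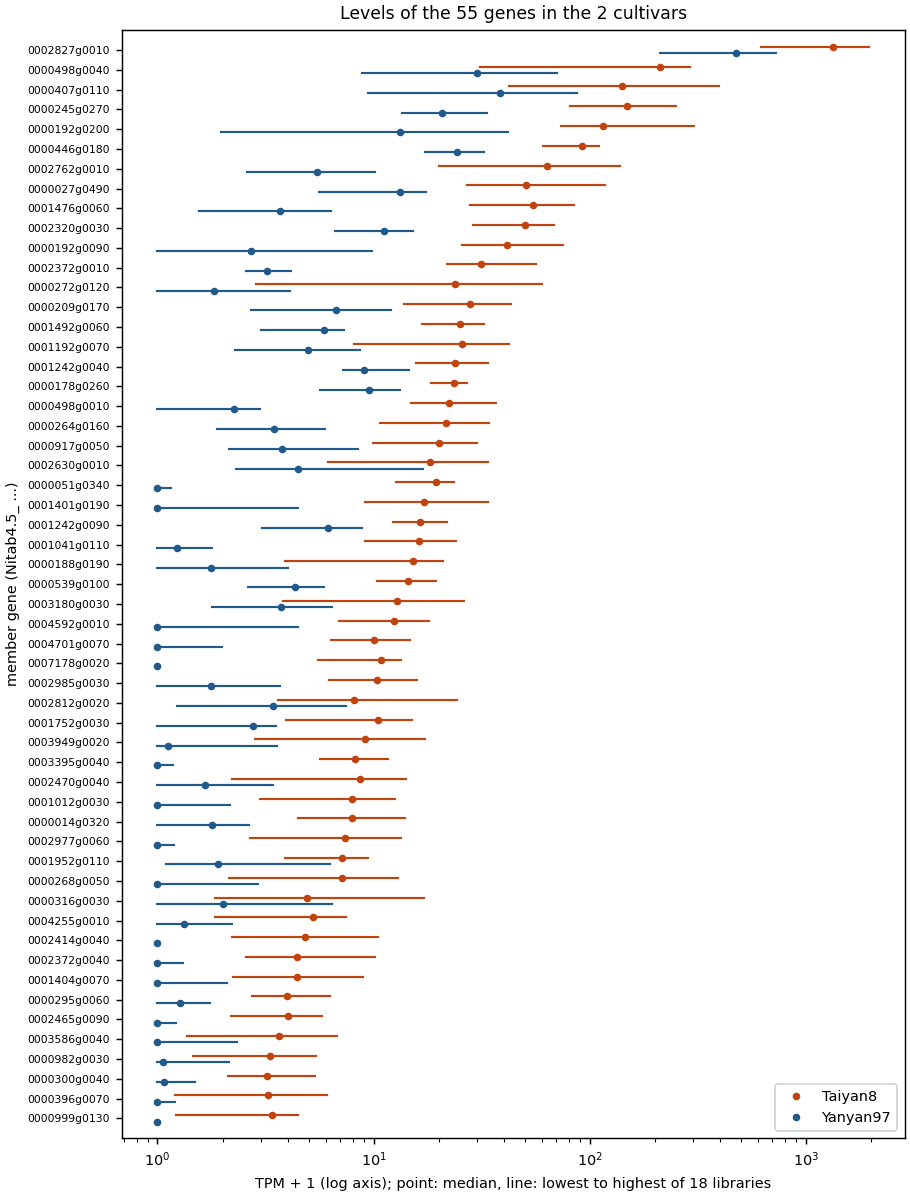
TPM + 1 on a log axis for each of the 55 genes, with TT in orange and YT in blue; points are medians and lines run from the lowest to the highest of 18 libraries. The genes are sorted by mean level in TT, which spans 2.19 to 1309 TPM, and several YT points lie at the left edge, where TPM is 0.

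Only 7 of the 55 genes carried a description in the tables used here, and 48 were known by their gene model identifier alone. Among them were 2 transcription factor genes. The bZIP gene Nitab4.5_0000188g0190, of a family that binds DNA through a basic region and pairs through a leucine zipper, had 1 exon on chromosome 17 (93431693 to 93432178). Its lowest, median and highest levels were 2.90, 14.2 and 19.9 TPM over the 18 TT libraries, against 0, 0.769 and 3.003 TPM over the 18 YT libraries. The TT libraries were above the YT libraries at each time point, although the lowest TT value was below the highest YT value of another time. The MADS gene Nitab4.5_0001242g0040, of a family best known for floral identity and flowering time, lay on chromosome 23 (27694207 to 27711000). It had 14.8, 22.9 and 32.8 TPM (lowest, median, highest) in TT, against 6.22, 8.07 and 13.6 TPM in YT. Its ratio stayed between 2.32 and 2.87, a span of 0.31 on the log2 scale, the smallest span of the 55 genes.

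The receptor-like kinase gene of the DUF26 group, Nitab4.5_0002465g0090 on chromosome 13 (138477511 to 138479768), belongs to a family of cysteine-rich surface kinases. It was weakly expressed, with 1.19, 3.01 and 4.78 TPM in TT, against 0, 0 and 0.220 TPM in YT. Its YT counts were between 0 and 9 per library, so its ratio rests on few reads on the YT side. The gene Nitab4.5_0000539g0100 on chromosome 2 (25132114 to 25136801) is annotated as a fragile histidine triad (FHIT) hydrolase, an enzyme of diadenosine triphosphate cleavage. It had 9.32, 13.4 and 18.4 TPM in TT, against 1.61, 3.32 and 4.87 TPM in YT. The groups did not overlap at any time point.

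The Mutator-like transposase gene Nitab4.5_0007178g0020, a mobile element gene on chromosome 20 (10559567 to 10569131), had 4.53, 9.78 and 12.4 TPM in TT and was listed at 0 TPM in all 18 YT libraries. Its YT counts did not exceed 5 per library. Nitab4.5_0000446g0180, described only as similar to an uncharacterised Arabidopsis protein, lay on chromosome 23 (36329219 to 36335024) and was among the abundant genes. It had 59.8, 91.4 and 110 TPM in TT, against 16.2, 23.4 and 31.5 TPM in YT. The seventh described gene, Nitab4.5_0000051g0340, an unknown protein on chromosome 12 (80106598 to 80110248), kept a ratio of at least 15.1, the highest such minimum of the set. It had 11.8, 18.5 and 22.7 TPM in TT, against 0, 0 and 0.150 TPM in YT. Of these 7 genes, 4 are listed as hub genes of a co-expression module that the study built from these libraries. That listing is not independent of the values. The bZIP, MADS and DUF26 kinase genes are described because the study lists them as differing between the cultivars in these same libraries. Such a list is close to the rule of the set, so it is not independent either.

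Nitab4.5_0002827g0010, a single-exon gene on chromosome 17 (168337624 to 168338736) without a description here, was the most abundant of the set. It had 619.8, 1342 and 1960 TPM (lowest, median, highest) in TT, against 210.3, 476.6 and 729.4 TPM in YT. Its ratio stayed between 2.33 and 3.47. The next most abundant, Nitab4.5_0000498g0040 on chromosome 15, had 30.0, 211 and 289 TPM in TT, against 7.82, 29.2 and 69.9 TPM in YT. Nitab4.5_0000407g0110, also on chromosome 15, had 41.4, 140.3 and 396.7 TPM in TT, against 8.47, 37.7 and 86.3 TPM in YT. For both of these chromosome 15 genes the ranges of the cultivars overlapped over all times, but the groups did not overlap at any single time point. Nitab4.5_0000245g0270 on chromosome 19 (117150316 to 117151330), a model of only 259 exon bases, had 80.3, 148 and 250.5 TPM in TT, against 12.6, 19.8 and 32.6 TPM in YT. Nitab4.5_0001476g0060, a single-exon model of 234 bases on chromosome 19 (146268057 to 146268290), had 26.8, 53.8 and 83.3 TPM in TT, against 0.558, 2.69 and 5.34 TPM in YT, with a ratio between 13.04 and 18.1. Of these 5 abundant genes, Nitab4.5_0001476g0060 stayed farthest above the limit of 2, while the ratio of Nitab4.5_0000407g0110 was 2.08 at 2 h, close to that limit. The 22 genes that are named nowhere in the text had mean levels between 2.36 and 47.2 TPM in TT (median 8.90), against at most 9.87 TPM in YT (median 0.67).

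In 4 of the 55 genes no YT library held more than 3 counts. For these a fold can only be bounded, and it was taken against 3 counts per YT library, which is 0.128 CPM (counts scaled to a common library total). Nitab4.5_0000051g0340 averaged 11.7 CPM in TT, at least 91.2-fold higher than that floor. Nitab4.5_0000999g0130 on chromosome 18 averaged 3.17 CPM, at least 24.7-fold higher. Nitab4.5_0002414g0040 on chromosome 12, which had 0 counts in all 18 YT libraries and between 13 and 106 in the TT libraries, averaged 2.05 CPM in TT, at least 16.0-fold higher. Nitab4.5_0000396g0070 on chromosome 17 averaged 1.07 CPM, at least 8.30-fold higher, and had as few as 3 counts in a TT library. With these 4 included, 16 genes had a YT median of 3 counts or fewer, and 35 genes had a YT median of at least 10 counts.

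A deposited TPM of 0 did not always mean that no read was counted. Of the 990 YT values of the set, 281 were 0 TPM, and 20 of these, in 8 genes, came with 10 or more counts; no TT value was 0. One case was Nitab4.5_0004592g0010 on chromosome 7, which was listed at 0 TPM in all 3 YT libraries of 0 h but held at least 5 counts in each YT library. When TPM was recomputed from the counts and exon lengths, 53 of the 55 genes kept a ratio of at least 2 at all 6 time points, and the median of the smallest ratio was 3.06. The 2 that did not, Nitab4.5_0000316g0030 (1.76) and Nitab4.5_0001752g0030 (1.96), were among the 3 genes closest to the limit. By the same rule, the recomputed TPM gave 69 genes, of which the 53 were 76.8%, so other genes also entered.

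Close to the limit, the genes just inside it were Nitab4.5_0002812g0020 with a smallest ratio of 2.06, Nitab4.5_0001752g0030 with 2.06 and Nitab4.5_0000316g0030 with 2.07. The genes just outside were Nitab4.5_0002661g0090 with 1.99, Nitab4.5_0000068g0480 with 1.98 and Nitab4.5_0000612g0140 with 1.94. The set therefore has no gap at its edge. Nitab4.5_0000068g0480 averaged 89.6 TPM in TT and 40.04 TPM in YT, a level above most of the 55 genes.

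The size of the cultivar ratio varied with time in cold. In order of time, its median over the 55 genes on the log2 scale was 1.91 before cold and then 2.54, 2.31, 2.196, 2.38 and 1.94. The ratio was smallest at 0 h in 22 genes and largest at 0.5 h in 17 genes. From 0 h to 8 h it widened in 31 genes and narrowed in 24, and it spanned less than 1 log2 unit over the 6 time points in 23 genes. A change of the ratio with time is made of the contrasts that chose the genes and was not tested. The ratio by time was not taken over all genes, so these counts do not show a pattern particular to the set. By another measure, the share of 20409 genes with TT higher and no overlap of libraries was also lowest before cold (6.73%). It was highest after 0.5 and 4 h (12% each). The widest span, 3.09 log2 units, belonged to Nitab4.5_0000192g0200, with a ratio of 5.24 at 0 h, 44.7 at 2 h and 12.1 at 8 h. That of Nitab4.5_0000498g0040 was 3.58 at 0 h, 16.8 at 0.5 h and 5.22 at 8 h. That of Nitab4.5_0000027g0490 narrowed, with 7.41 at 0 h, 3.13 at 2 h and 3.63 at 8 h.

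**Figure D2:**
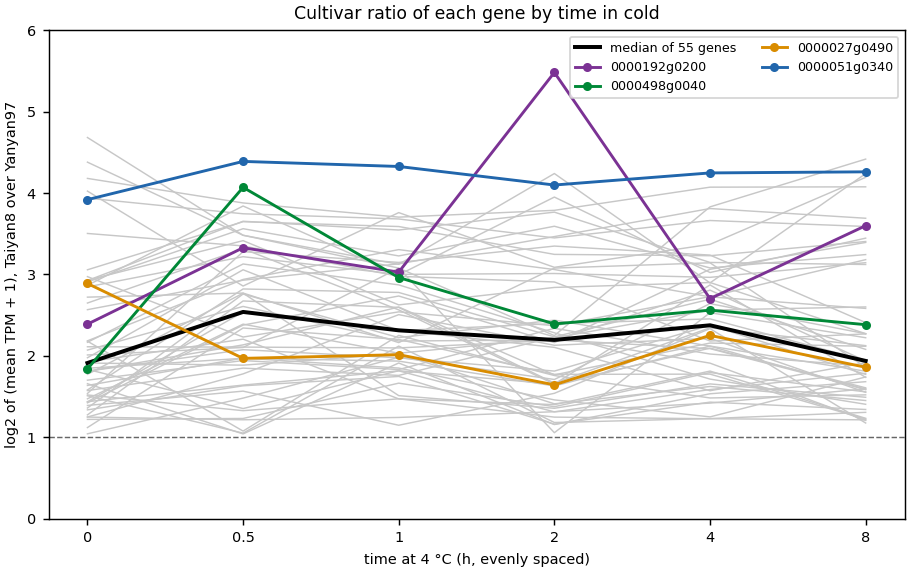
Log2 of the ratio of mean TPM + 1, TT over YT, at 6 times of cold (evenly spaced), with 1 grey line per gene, the median of the 55 genes in black and 4 named genes in colour; the dashed line marks the ratio of 2. The median lies between 1.91 and 2.54, and Nitab4.5_0000192g0200 peaks at 2 h.

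The 55 genes lay on 19 of 24 chromosomes, with 11 on chromosome 17, 6 each on chromosomes 15 and 23, and none on chromosomes 4, 6, 9, 11 and 21. Of the genes with a mean of at least 1 TPM in TT, these were 0.580% of 1896, 0.685% of 876 and 0.552% of 1087. The largest share was on chromosome 18, with 4 genes (0.749% of 534). The chromosomes without a gene of the set held 1446, 633, 762, 348 and 528 such genes. Another gene of the set was found within 5 Mb of 20 genes, within 1 Mb of 9 and within 100 kb of 2. Their models were short: the median was 681 exon bases, against 1169 in the 20098 genes with a mean of at least 1 TPM in TT, and 36.4% of the set was under 500 exon bases, against 10.9%. The median number of exons was 3 in the set, against 5 in those genes. Exon length did not enter the choice directly, but TPM divides by it, so short models reach a given TPM with fewer reads. The comparison genes were also chosen by TPM, and why the models of the set were shorter was not tested.

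The stretch with the most genes of the set was on chromosome 15, where 5 lay between 29296677 and 32388733. In order of position they were Nitab4.5_0000192g0090, Nitab4.5_0000192g0200 (29880166 to 29887663), Nitab4.5_0000498g0010 (30111655 to 30124334), Nitab4.5_0000498g0040 (30311502 to 30315927) and Nitab4.5_0000407g0110 (32385534 to 32388733). Averaged over the 6 time points, their log2 ratios lay between 2.17 and 3.73. The 24 other genes of the stretch with a mean of at least 1 TPM lay between -0.83 and 0.51 with a median of -0.23, and 18 of the 24 were on average lower in TT. The stretch was marked out, by gaps of at most 5 Mb between genes of the set, after the positions had been seen. The genes of the set lie high by the rule that chose them. The lean of the other genes was not particular to this stretch. In other intervals marked out likewise, 61 of 76 were lower in TT on chromosome 19, 11 of 12 on 20, 21 of 27 on 17 and 17 of 25 on 23. It was absent from 9970066 to 11560479 on chromosome 17 (4 of 9) and on chromosome 8 (0 of 1). The share over all genes was not taken. The second and the third of the 5 genes had neighbouring places in the annotation. The first of the pair, Nitab4.5_0000192g0200, had 72.4, 114.2 and 304.4 TPM in TT, against 0.961, 12.3 and 41.1 TPM in YT. Nitab4.5_0000498g0010 had 13.9, 21.3 and 35.9 TPM in TT, against 0, 1.25 and 1.97 TPM in YT.

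**Figure D3:**
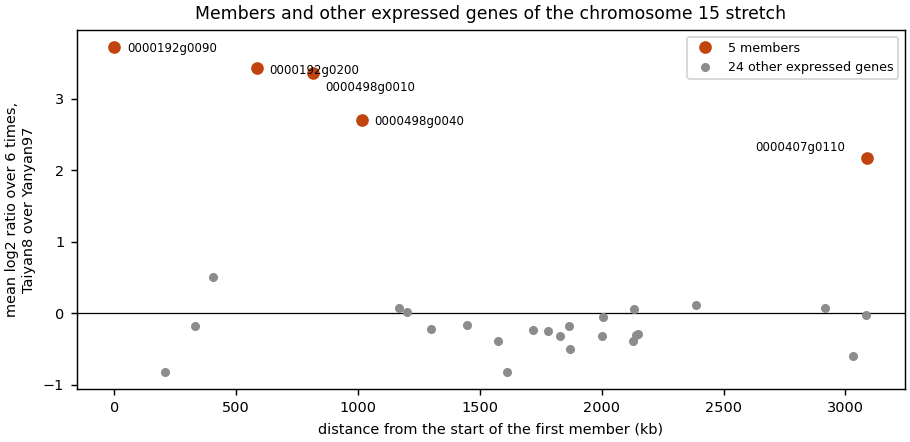
Mean log2 ratio of mean TPM + 1 over 6 time points, TT over YT, for the expressed genes of the chromosome 15 stretch, by distance in kb from the start of its first member. The 5 genes of the set (orange) lie at 2.17 or above and the 24 other genes (grey) at 0.51 or below.

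On chromosome 23, 3 genes lay between 27136125 and 27725909, among them the MADS gene and its neighbour Nitab4.5_0001242g0090 (27722934 to 27725909). That neighbour had 11.4, 15.3 and 20.9 TPM in TT, against 2.05, 5.18 and 7.88 TPM in YT, close to the MADS gene in the size of its ratio (2.24 to 3.36). Of the 7 other genes of at least 1 TPM in that interval, 6 were on average lower in TT. That lean was also seen in most other intervals, as given above. On chromosome 17 a further pair, Nitab4.5_0002985g0030 and Nitab4.5_0000268g0050, stood at the ends of an interval from 45648564 to 49010185 that also held 11 genes always higher in YT. Genes with opposite cultivar differences thus lay in the same interval. The interval was drawn between the genes of the pair, so their place at its ends follows from that. The span of 1 gene, Nitab4.5_0003395g0040 on chromosome 18, overlapped another gene model, and its reads may be shared with it, since reads were counted without regard to strand.

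The change with cold inside each cultivar did not choose the genes and was tested for all 23740 genes with enough counts, all 55 included, with edgeR's quasi-likelihood test. The count filter used all 36 libraries, so genes at the YT floor passed it through their TT counts. A call needed a log2 fold change beyond 1 in either direction and a p, adjusted by Benjamini-Hochberg over all genes tested, under 0.05. In all, 24 of the 55 genes were called at some time in a cultivar (beside 36.6% of all tested genes) and 31 at none. Of the 24, 10 were called in both cultivars (beside 15.4% of all tested genes), 6 in TT and at no time in YT (beside 14.2%), and 8 in YT and at no time in TT (beside 6.98%). Of those 8, 3 did not reach 10 counts in 3 YT libraries. Being called in a single cultivar does not show that the responses differ, and that difference was not tested.

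In TT, 3 genes of the set were higher after 0.5 h of cold (beside 5.13% of all tested genes), 5 after 1 h (beside 5.65%), 7 after 2 h (beside 8.05%), 6 after 4 h (beside 9.55%) and 7 after 8 h (beside 12.4%). Lower were 2 after 0.5 h (beside 1.17% of all tested genes), 1 after 1 h (beside 1.8%), 6 after 2 h (beside 6.32%), 4 after 4 h (beside 5.93%) and 5 after 8 h (beside 8.79%). For 55 genes, 7 genes are 12.7% and 5 genes are 9.09%, so at 8 h the shares of the set were near those of all genes. The median log2 fold change of the set at 8 h was -0.10 in TT, beside -0.05 over all genes tested. Several early counts moved when 1 library was dropped. The 2 lower genes of 0.5 h became 0 if replicate 1 or 2 of TT 0 h, or replicate 2 or 3 of TT 0.5 h, was dropped. The 5 higher genes of 1 h became 2 if replicate 2 of TT 0 h was dropped, and 3 if replicate 1 or 3 of TT 0 h or of TT 1 h was. The 1 lower gene of 1 h became 0 if replicate 1 or 3 of TT 1 h was dropped, and the 6 lower genes of 2 h became 3 if replicate 2 of TT 2 h was.

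In YT, edgeR called none after 0.5 h in either direction, beside 1.46% of all tested genes higher and 0.11% lower. At an unadjusted p under 0.05, 4 genes of the set were higher and 3 lower there, and DESeq2 called 1 lower. Higher were 2 genes after 1 h of cold (beside 3.37% of all tested genes), 6 after 2 h (beside 4.81%), 7 after 4 h (beside 8.73%) and 9 after 8 h (beside 9.94%). Lower were 0 after 1 h (beside 0.56% of all tested genes, and 4 of the set at an unadjusted p under 0.05), 3 after 2 h (beside 3.1%), 4 after 4 h (beside 3.87%) and 4 after 8 h (beside 7.33%). The 9 higher genes of 8 h are 16.4% of the set and the 4 lower ones 7.27%. Of those calls of 8 h, 7 higher and 2 lower were among the 43 genes with at least 10 counts in 3 or more YT libraries. The median log2 fold change of the 55 genes at 8 h was 0.09, beside -0.02 over all genes tested. In order of time, 7, 9, 8, 7 and 6 of the 55 genes had at most 3 counts in every YT library compared. No change can be seen at that floor, so the YT counts and shares include genes that could hardly be called. If replicate 1 of YT 0 h was dropped, the 7 higher genes of 4 h became 3, and if replicate 3 of YT 0 h or replicate 2 or 3 of YT 4 h was, the 4 lower genes of 4 h became 2. The count of 0 lower genes after 1 h became 1 if replicate 3 of TT 4 h, replicate 3 of YT 1 h or replicate 2 of YT 8 h was dropped.

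**Figure D4:**
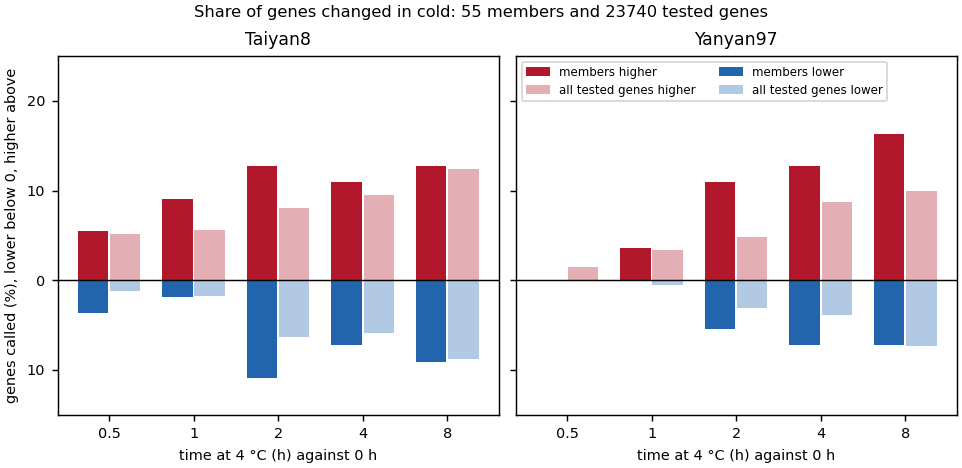
Percent of genes called higher (above 0) or lower (below 0) in cold than at 0 h, by time, in TT (left) and YT (right); dark bars are the 55 genes and pale bars all 23740 tested genes. At 8 h in TT the set had 12.7% higher and 9.09% lower, beside 12.4% and 8.79% of all genes.

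Nitab4.5_0000498g0040 on chromosome 15 rose in both cultivars. In TT it had 247, 119 and 209 TPM in the 8 h libraries, against 30.0, 32.4 and 41.5 TPM at 0 h. In YT it had 28.9, 29.5 and 49.3 TPM at 8 h, against 8.26, 10.8 and 7.82 TPM at 0 h. In both cultivars the 8 h libraries all lay above the 0 h libraries. It rose in TT at all 5 times, with log2 fold changes between 2.39 and 2.83 (2.39 ± 0.31, SE, adjusted p = 3.7e-07 at 8 h). In YT it rose from 1 h on, with 2.28 ± 0.32 at 8 h (adjusted p = 1.4e-06), while its log2 fold change at 0.5 h was 0.43 ± 0.31 (adjusted p = 0.70). At 0.5 h the TT mean was 199 ± 46.5 TPM and the YT mean 10.9 ± 0.706 TPM (SD, n = 3 each).

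Nitab4.5_0001192g0070 on chromosome 5 (21286228 to 21290780) rose in TT at all 5 times and in YT at 2, 4 and 8 h. Its TT libraries had 26.5, 22.98 and 26.2 TPM at 8 h, against 7.09, 8.55 and 7.20 TPM at 0 h. Its YT libraries had 5.49, 4.42 and 5.12 TPM at 8 h, against 3.51, 2.89 and 1.28 TPM at 0 h. Neither cultivar's 8 h libraries overlapped its 0 h libraries. The log2 fold change at 8 h was 1.62 ± 0.33 in TT (adjusted p = 0.00024) and 1.24 ± 0.36 in YT (adjusted p = 0.0080), and the 3 YT calls were lost if replicate 3 of YT 0 h was dropped (0.90 at 8 h, adjusted p = 0.071), that of 2 h also without replicate 3 of YT 2 h.

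Nitab4.5_0002762g0010 on chromosome 22 (75279719 to 75288370) had 27.8, 96.8 and 66.7 TPM in TT at 8 h, against 19.01, 20.7 and 24.4 TPM at 0 h. Its YT libraries had 9.18, 6.25 and 7.28 TPM at 2 h, against 1.59, 3.596 and 3.14 TPM at 0 h. It rose in TT from 1 h on, with its largest log2 fold change at 2 h (2.25 ± 0.38, adjusted p = 4.1e-05), and in YT at 2 h (1.67 ± 0.40, adjusted p = 0.0036) and 4 h. At 8 h in YT its log2 fold change was 0.87 ± 0.40 (adjusted p = 0.10). The TT call of 1 h was lost if replicate 1 or 2 of TT 0 h or replicate 1 of TT 1 h was dropped, and the YT call of 4 h if replicate 1 of YT 0 h or replicate 2 or 3 of YT 4 h was. The weaker genes Nitab4.5_0002812g0020 on chromosome 16 and Nitab4.5_0000316g0030 on chromosome 19 also rose in both cultivars. Nitab4.5_0002812g0020 had 23.2, 18.4 and 8.11 TPM in TT at 8 h, against 5.33, 5.52 and 5.68 TPM at 0 h. In YT it had 6.46, 2.82 and 4.14 TPM at 8 h, against 0.834, 1.55 and 0.802 TPM at 0 h. The 8 h libraries lay above the 0 h libraries in both, with log2 fold changes of 1.68 ± 0.50 in TT (adjusted p = 0.0079) and, on the YT side, 2.15 ± 0.55 (adjusted p = 0.0028). Nitab4.5_0000316g0030 was highest at 2 h, with 8.00, 16.0 and 12.2 TPM in TT, against 1.95, 3.23 and 3.29 TPM at 0 h, and 4.08, 4.81 and 5.42 TPM in YT, against 0.0957, 0.796 and 0.134 TPM at 0 h. Its log2 fold change at 2 h was 2.23 ± 0.66 in TT (adjusted p = 0.0095), a call lost if replicate 1 of TT 0 h or replicate 2 of TT 2 h was dropped, and 3.95 ± 0.77 in YT (adjusted p = 0.00040).

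**Figure D5:**
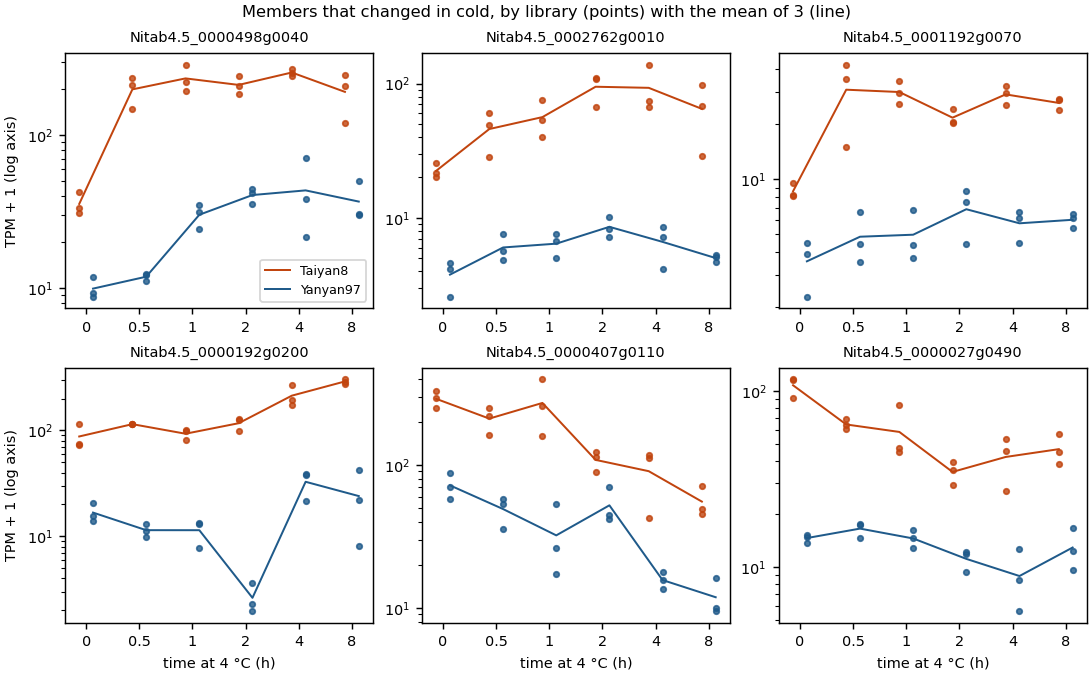
TPM + 1 on log axes by time at 4 °C for 6 genes that changed in cold, with a point per library and a line through the mean of 3, TT in orange and YT in blue. In Nitab4.5_0000498g0040 the TT mean reached 199 TPM at 0.5 h, when the YT mean was 10.9 TPM.

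Nitab4.5_0000407g0110, at the far end of the same chromosome 15 stretch, fell in both cultivars. It had 70.6, 48.0 and 44.3 TPM in TT at 8 h, against 325.7, 248.6 and 291.6 TPM at 0 h. In YT it had 8.94, 15.1 and 8.47 TPM at 8 h, against 86.3, 69.5 and 56.7 TPM at 0 h. The log2 fold change at 8 h was -2.53 ± 0.42 in TT (adjusted p = 1.4e-05) and -2.40 ± 0.42 in YT (adjusted p = 4.2e-05). It was called lower from 2 h on in TT and from 4 h on in YT. Genes of that stretch thus changed in opposite directions. The most abundant gene, Nitab4.5_0002827g0010, had 833.8, 784.6 and 619.8 TPM in TT at 8 h, against 1652, 1646 and 1757 TPM at 0 h. Its YT libraries had 281.5, 210.3 and 266.4 TPM at 8 h, against 729.4, 713.8 and 725.3 TPM at 0 h. Its log2 fold change at 8 h was -1.27 ± 0.21 in TT (adjusted p = 1.3e-05) and -1.24 ± 0.21 in YT (adjusted p = 2.1e-05), and the libraries of 8 h and 0 h did not overlap.

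Nitab4.5_0000027g0490, a single-exon gene on chromosome 24 (108932490 to 108933077), fell at all 5 times in TT and was not called in YT. It had 43.8, 56.0 and 37.7 TPM in TT at 8 h, against 116.2, 115.3 and 89.996 TPM at 0 h. In YT it had 11.3, 15.7 and 8.64 TPM at 8 h, against 13.9, 12.7 and 14.3 TPM at 0 h. The TT libraries of 8 h were all below those of 0 h, and the YT libraries overlapped. Its log2 fold change at 8 h was -1.34 ± 0.31 in TT (adjusted p = 0.00073) and 0.08 ± 0.32 in YT (adjusted p = 0.88). The TT call at 0.5 h (-1.02 ± 0.30, adjusted p = 0.021) was lost if replicate 1 or 2 of TT 0 h, or replicate 2 or 3 of TT 0.5 h, was dropped. Nitab4.5_0001476g0060 fell in TT at 8 h, with 38.3, 26.8 and 34.6 TPM, against 83.3, 60.3 and 76.1 TPM at 0 h (log2 fold change -1.28 ± 0.29, adjusted p = 0.00059). Nitab4.5_0003180g0030 on chromosome 17 (9970066 to 9971963) had 8.67, 5.32 and 12.9 TPM in TT at 8 h, against 25.1, 15.2 and 16.0 TPM at 0 h. Its log2 fold change of -1.28 ± 0.51 was close to the limit (adjusted p = 0.046), and the call was lost, among others, if any replicate of TT 0 h was dropped. Nitab4.5_0001752g0030 on chromosome 10 (84245148 to 84252494) rose in TT, with 9.78, 9.95 and 13.5 TPM at 8 h, against 4.37, 3.44 and 2.91 TPM at 0 h (log2 fold change 1.72 ± 0.45, adjusted p = 0.0030).

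Nitab4.5_0000192g0200 on chromosome 15 was called in both directions. In TT it had 288, 276 and 304.4 TPM at 8 h, against 73.6, 72.4 and 114.1 TPM at 0 h. It rose there at 4 h (1.14 ± 0.35, adjusted p = 0.012) and 8 h (1.598 ± 0.35, adjusted p = 0.00054), the call of 4 h being lost if replicate 1 of TT 0 h or replicate 3 of TT 4 h was dropped. In YT it had 2.61, 1.29 and 0.961 TPM at 2 h, against 14.6, 12.8 and 19.8 TPM at 0 h. It fell in YT at 2 h (-3.14 ± 0.41, adjusted p = 1.2e-06), with no overlap of the libraries, and rose at 4 h (1.15 ± 0.36, adjusted p = 0.017), a call lost if replicate 1 or 2 of YT 0 h, or replicate 1 of YT 4 h, was dropped, and in a fit of the 18 YT libraries alone. At 8 h in YT, its log2 fold change was 0.67 ± 0.35 (adjusted p = 0.16), and 1.096 (adjusted p = 0.0049) if replicate 3 of YT 8 h was dropped. At the same 2 h the TT log2 fold change was 0.41 ± 0.35 (adjusted p = 0.39). Its neighbour Nitab4.5_0000498g0010 also fell in YT at 2 h (-1.72 ± 0.42, adjusted p = 0.0039; not called in a fit of the 18 YT libraries alone), with 0.855, 0.151 and 0 TPM, against 1.51, 1.59 and 1.97 TPM at 0 h.

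Nitab4.5_0000272g0120 on chromosome 17 (35085594 to 35087301) was lower in TT at 0.5 and 2 h and higher in YT at 8 h. Its TT libraries had 20.4, 1.85 and 12.1 TPM at 2 h, against 42.9, 21.9 and 24.3 TPM at 0 h. Its YT libraries had 0.581, 1.95 and 2.25 TPM at 8 h, against 0, 0.286 and 0.304 TPM at 0 h (log2 fold change 2.03 ± 0.51, adjusted p = 0.0023). The TT libraries of 2 h were spread widely, and the 2 h call (-1.38 ± 0.43, adjusted p = 0.014) was lost if replicate 2 of TT 2 h or replicate 1 of TT 0 h was dropped, as was that of 0.5 h if replicate 1 or 2 of TT 0 h, or replicate 2 or 3 of TT 0.5 h, was. Nitab4.5_0004592g0010 was called higher in YT at 1, 2, 4 and 8 h, with log2 fold changes between 1.48 and 1.57, on between 5 and 45 counts per YT library; in a fit of the 18 YT libraries alone the calls of 1 h (adjusted p = 0.12) and 2 h (adjusted p = 0.073) were lost. Its deposited TPM in YT was 0 in 12 of 18 libraries, so the change is seen in the counts.

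Several YT calls rest on very few reads. Of the 18 genes called in YT, 4 did not reach 10 counts in 3 YT libraries. The DUF26 kinase gene Nitab4.5_0002465g0090 summed to 0 counts over the 3 YT libraries of 8 h, against 14 at 0 h. Nitab4.5_0003586g0040 summed to 0 counts at 2, 4 and 8 h, against 8 at 0 h. Nitab4.5_0002977g0060 summed to 10 counts at 8 h, against 0 at 0 h, and Nitab4.5_0003395g0040 to 4 counts, all in 1 library, against 0. These calls are given as counts, without a fold. In TT, where it was well counted, Nitab4.5_0002977g0060 was called higher at all 5 times, with 6.33, 5.06 and 3.18 TPM at 8 h, against 1.94, 2.09 and 1.68 TPM at 0 h; its calls of 0.5, 1 and 8 h were lost, among others, if replicate 2 of TT 0 h was dropped.

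Of the 7 described genes, 6 were called at no time in either cultivar, and the DUF26 kinase gene was called only in YT at 8 h on the counts given above. This holds for the edgeR fit of all libraries: the bZIP gene Nitab4.5_0000188g0190 was called lower in TT at 8 h if replicate 1 of TT 8 h (-1.27, adjusted p = 0.0497) or replicate 1 of YT 4 h (-1.01, adjusted p = 0.026) was dropped, and lower in YT at 4 h if replicate 2 of YT 4 h was (adjusted p = 0.014). The transposase gene Nitab4.5_0007178g0020, with at most 5 counts per YT library, was called higher in YT at 8 h by DESeq2 (adjusted p = 0.034) and if replicate 1 (adjusted p = 0.033) or 3 (adjusted p = 0.030) of YT 8 h was dropped. At 8 h the log2 fold changes in TT were -1.01 ± 0.44 for the bZIP gene Nitab4.5_0000188g0190 (adjusted p = 0.064), -0.55 ± 0.29 for the MADS gene Nitab4.5_0001242g0040 (adjusted p = 0.13) and -0.55 ± 0.23 for the FHIT gene Nitab4.5_0000539g0100 (adjusted p = 0.056). Those of Nitab4.5_0000446g0180 and Nitab4.5_0000245g0270 were -0.81 ± 0.16 (adjusted p = 0.00013) and -0.80 ± 0.26 (adjusted p = 0.015), past the p limit but under the fold limit. Nitab4.5_0000051g0340 had 17.1, 18.9 and 18.5 TPM in TT at 8 h, against 15.7, 14.97 and 11.8 TPM at 0 h (log2 fold change 0.21 ± 0.25, adjusted p = 0.53). The transposase gene Nitab4.5_0007178g0020 had 8.04, 9.85 and 10.9 TPM in TT at 8 h, against 4.53, 6.49 and 10.97 TPM at 0 h (0.27 ± 0.31, adjusted p = 0.51). A p above the limit does not show that these levels stayed the same.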

How the data were processed

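Leaf mRNA was sequenced by the authors in 36 libraries. Read quality was checked in FastQC 0.11.5, adapters were trimmed in Trim Galore 0.6.4, and HISAT2 2.0.5 placed reads on the Nitab-v4.5 tobacco genome; SAMtools 1.9 kept alignments with a mapping quality of 20 or more. From these the authors made raw counts per gene with featureCounts 1.6.4, ignoring strand. The deposited TPM values come from StringTie 1.3.4d, as the authors state, and the pseudocount here was 1. Gene names were limited to descriptions in the study's tables; no gene of the set matched the reference gene table, and no sequence is shown. The labels and the methods give different growth temperatures and humidity. The cultivar contrast defined the set and was not tested.

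Cold was tested against 0 h on counts with edgeR 4.0.16 in R 4.3.3 (TMM scaling, filterByExpr, 1 model over 12 groups, two-sided). The p-values set a change against the spread between the 3 biological replicates of a group, estimated jointly over all 12 groups. They therefore do not rest on the compared groups alone. Each SE of a log2 fold change was its size divided by the square root of the test's F statistic, not a separate estimate. Named genes were taken by a rule: described genes, the most abundant, those at the YT floor, the largest changes at 8 h, those at the limit, and neighbouring pairs; no gene was called at all 5 times in both cultivars. Those in the text beyond the rule (Nitab4.5_0004592g0010, Nitab4.5_0002977g0060, Nitab4.5_0003395g0040, Nitab4.5_0003586g0040, Nitab4.5_0002985g0030, Nitab4.5_0000268g0050, Nitab4.5_0000192g0090) were chosen after their values were seen. Segments left out were chromosome 8 from 105 Mb, chromosome 12 from 111 to 114 Mb and chromosome 11 to 5 Mb. The genes and lists were chosen with earlier results of these data known. Alternatives were DESeq2 1.42.0 and other filters, scalings and library subsets.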

Additional observations from a re-analysis of the deposited data

How the results depend on the processing

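The set held 55 genes with a pseudocount of 1 and a ratio of 2; it held 99 with a pseudocount of 0.1, 28 with a ratio of 3 and 125 with a ratio of 1.5. CPM in place of TPM gave 65 genes, of which 49 were shared (75.4% of those 65 and 89.1% of the 55). Leaving out a replicate of all groups, or YT 4 h replicate 3, gave 49 to 55 genes. Counts of cold calls moved by over 1.5 times as follows. With the replicate block, TT 0.5 h lower was 1 in place of 2; same-numbered libraries did not deviate together (median r = 0.02, over 0.1 in 4 of 30 pairs), and the block moved no other count that far. With DESeq2, YT 0.5 h lower was 1 in place of 0. With the adjusted p alone, TT lower was 7 at 4 h, 10 at 8 h and 14 at any time, in place of 4, 5 and 8. With only the 18 libraries of a cultivar, TT higher at any time was 13 in place of 8; in YT, higher was 1 after 1 h, 5 after 8 h and 7 at any time, in place of 2, 9 and 11, and lower was 1 after 2 h, 1 after 4 h, 2 after 8 h and 3 at any time, in place of 3, 4, 4 and 8.

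Without 1 library, in order of time and then at any time, TT higher ranged over 2 to 4, 2 to 5, 5 to 8, 5 to 8, 6 to 7 and 7 to 9; TT lower over 0 to 2, 0 to 1, 3 to 6, 3 to 5, 4 to 6 and 6 to 9. YT higher ranged over 0 to 0, 2 to 2, 5 to 7, 3 to 8, 6 to 11 and 8 to 13, and YT lower over 0 to 0, 0 to 1, 2 to 4, 2 to 4, 3 to 5 and 6 to 9. Of 81 calls in all, 42 in 14 genes held under each alternative that kept the fold limit. The log2 fold change at 8 h of Nitab4.5_0001242g0090 in TT, -0.03, was 0.0196 with DESeq2, 0.0195 with its size factors in edgeR and 0.0341 with only the 18 TT libraries. Without 1 library, 8 h values that were not called changed sign within these ranges: in YT, -0.28 to 0.30 for Nitab4.5_0000539g0100, -0.13 to 0.84 for Nitab4.5_0001752g0030 (-0.0897 in a second case), -0.16 to 0.33 for Nitab4.5_0001242g0040 and -0.36 to 0.32 for Nitab4.5_0000027g0490; in TT, -0.39 to 0.0761 for Nitab4.5_0002465g0090 (0.0232 in a second case), -0.0239 to 0.71 for Nitab4.5_0000316g0030 and -0.0789 to 0.0347 for Nitab4.5_0001242g0090. The cause was not tested for any of these. Depth limits the values of genes with few counts, as of the 16 genes with a median of 3 counts or fewer in YT, a cultivar in which the genes were chosen to be low.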
